A study of Mus musculus with 24 samples.

Results

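RNA of 37 marker genes was followed through mouse prostate tissue and through organoids, which are epithelial cultures grown from single cells in a gel. The genes mark cells that are not prostate epithelium. They were taken from a fixed list, matched by symbol to the deposited transcripts, and all 37 were found among 35449 genes. There were 7 fibroblast genes, 6 of smooth muscle and mural cells, 7 endothelial genes, 1 pan-leukocyte gene, 2 T cell genes, 3 of B and plasma cells, 5 myeloid genes, 2 glial genes, 2 adipocyte genes and 2 red cell genes. Levels are given as TPM, a gene's share of all transcripts after division by transcript length, which allows comparison between genes.

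Prostate ducts are lined by epithelium and wrapped in fibroblasts and smooth muscle, with blood vessels, nerves and immune cells between them. Each of these cell types makes proteins that epithelium largely lacks: contractile proteins in smooth muscle, junction and adhesion proteins in endothelium, receptor and lysosomal proteins in macrophages. RNA of such genes in a dissected lobe therefore reports on the mixture of cells in it. In bulk RNA, fewer cells of a type and less RNA per cell cannot be told apart.

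The study compared 3 genotype labels of Brca1, a gene of DNA repair by homologous recombination: wild type (WT), Brca1+/- (HET) and Brca1-/- (KO). The 6 tissue libraries were made from anterior prostate lobes, 2 per label. The 18 organoid libraries form 6 groups of 3, each genotype label cultured with or without dihydrotestosterone (DHT), an androgen. Organoids were grown in Matrigel from collagenase-digested anterior lobes of 3-month-old mice, in medium that also held EGF, Noggin, R-Spondin, the inhibitors A83-01 and Y27632, N-acetylcysteine and B27. The age of the mice behind the tissue libraries, the promoter or cell type behind the Brca1 loss and the number of mice are not given in the sources used here. The labels call the libraries replicates without tying them to animals or cultures, so a p-value reflects the spread among libraries, which may be technical.

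Libraries held 11965815 to 58445041 estimated reads. Mean Brca1 in organoids was 2.59 and 2.73 TPM in the KO-labelled groups, against 2.95 and 3.03 in WT and 3.59 and 3.96 in HET, and no source used here says which exons were removed. RNA thus does not check the genotype, and WT, HET and KO below are the labels. Mitochondrial genes took 9.43% of reads in HET without DHT replicate 1 and 10% in KO without DHT replicate 1. The epithelial adhesion gene Epcam lay between 448 and 1332 TPM in tissue and at a median of 1254 TPM in organoids. The 7 epithelial genes looked at summed to 1520 TPM in tissue WT 2 and to 3432 to 4306 in the other tissue libraries. In organoids that sum ran from 3965 to 5999 TPM, so epithelial RNA was high in both materials and lowest in WT 2. Among the tissue libraries, WT 2 and HET 1 stood apart. In them 8 genes of the seminal vesicle, the gland that lies against the anterior lobe, summed to 17.8% and 6.29% of all TPM, against at most 0.00248% in the other 4. Values that rest on these libraries are given for each library, and their part in the marker levels was not tested.

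Over the 6 tissue libraries the marker sums of fat and T cells spanned the widest ranges, 24.0-fold and 23.5-fold, and that of endothelium the narrowest. The smooth muscle and mural markers summed to 356 TPM in WT 1, 1067 in WT 2, 127 in HET 1, 487 in HET 2, 391 in KO 1 and 909 in KO 2, an 8.42-fold range. The 7 endothelial markers summed to between 39.2 and 45.8 TPM, a 1.17-fold range. Of the 37 members, 18 had their highest tissue level in HET 1, 8 in WT 2, 6 in KO 2 and 5 in WT 1. HET 2 and KO 1 held none of the maxima.

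Actg2, the enteric smooth muscle actin, had the highest mean of all members in tissue, 246 TPM, although the globin gene Hbb-bs exceeded it in WT 1, HET 1 and HET 2. It stood at 147 and 476 TPM for WT, 36.4 and 203 for HET and 169 and 445 for KO. WT 2 and KO 2 were high, HET 1 was low, and the labels overlapped. Des, which encodes the muscle intermediate filament protein desmin, read 122 and 238 TPM for WT, 20 and 174 for HET and 106 and 270 for KO. Its order over the libraries was close to that of Actg2, with HET 1 again lowest by a wide margin. Myh11, the smooth muscle myosin heavy chain, named after its values were seen, was 46.8 and 271 TPM for WT, 35.0 and 65.1 for HET and 68.0 and 123 for KO. The ratio of Myh11 to Des was 1.14 in WT 2 and 1.75 in HET 1, the libraries with seminal vesicle RNA, and between 0.373 and 0.640 in the other 4. The 7 skeletal muscle genes looked at summed to 34.0 to 337 TPM over the tissue libraries, highest in WT 2. Among them the actin gene Acta1 read 309 TPM in WT 2 and 20.9 to 93.4 elsewhere, Ckm, the muscle creatine kinase, 1.82 to 24.3, and the myosins Myh1, Myh2 and Myh4 at most 0.0378. The part of skeletal muscle in these levels was not tested.

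Rgs5, a regulator of G protein signalling known from pericytes, ran against the contractile genes. It read 16.6 and 8.55 TPM for WT, 17.0 and 7.81 for HET and 14.2 and 9.90 for KO. The first library of each label was the higher one, while for Actg2 and Des it was the lower one. A number shared across labels marks no shared animal or day in the sources used here.

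Leukocyte markers were concentrated in 1 tissue library. Ptprc, the pan-leukocyte phosphatase CD45, stood at 2.03 and 1.34 TPM for WT, 10.5 and 1.42 for HET and 2.72 and 1.40 for KO. Cd3e, a chain of the T cell receptor complex, was 9.63 TPM in HET 1 and between 0.461 and 0.976 in the other 5. Cd8a, the coreceptor of cytotoxic T cells, was 3.28 TPM in HET 1, 1.10 in KO 1 and at most 0.419 in the rest. HET 1 was thus the highest library for all 3 genes and HET 2 was not, so the label HET does not describe the difference.

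Myeloid genes followed the same library. Lyz2, the macrophage and neutrophil lysozyme, was 55.6 and 40.2 TPM for WT, 106 and 31 for HET and 32.2 and 27.0 for KO. Lyz2 has a close copy, Lyz1, and 32.8% of the 31-base words of its transcript also occur there, so reads from those words could be assigned to either gene. That share does not give the error in its level. Adgre1, which encodes the macrophage protein F4/80 and was named after its values were seen, was 16 TPM in HET 1 and between 2.05 and 5.16 in the other 5. All 5 myeloid members had their maximum in HET 1. The ratio of Adgre1 to Ptprc stayed between 1.53 and 2.08 over the 6 libraries, while Ptprc itself spanned a 7.80-fold range. Cd3e relative to Ptprc was 0.921 in HET 1 and between 0.325 and 0.696 elsewhere.

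The 3 B and plasma cell members were low. Jchain, the joining chain of secreted IgA and IgM, was 7.20 TPM in HET 1 and between 0.868 and 1.65 in the other 5. Ms4a1, the B cell surface protein CD20, did not share that pattern and lay between 0.243 and 0.414 TPM in all 6. Cd79a, a B cell receptor chain, lay between 0.18 and 0.32 TPM.

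The sum of the fibroblast markers was higher in the WT libraries and in HET 1 than in the other 3, though not every member followed it. Mfap5, a microfibril protein of fibroblast matrix, was 37.3 and 13.8 TPM for WT, 17.6 and 17.2 for HET and 18.5 and 12.2 for KO. Dpt, the matrix protein dermatopontin, was 15.6 and 23.9 TPM for WT, 13.6 and 5.82 for HET and 6.59 and 6.28 for KO. WT 1 carried the most Mfap5 and WT 2 the most Dpt, and the WT and KO values of Dpt did not overlap. The class as a whole summed to 83.5 and 64.4 TPM for WT, 71.1 and 43.8 for HET and 41.4 and 37.5 for KO.

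The endothelial markers were even in sum and less so one by one. Pecam1, the junctional adhesion protein CD31, was 18.7 and 9.68 TPM for WT, 14.9 and 16.3 for HET and 14.2 and 18 for KO. Of this, Pecam1-208, a retained-intron transcript taken up below, made up 7.54 and 1.76 TPM for WT, 1.57 and 6.42 for HET and 4.14 and 7.66 for KO. Emcn, the sialomucin endomucin, was 8.08 and 15.7 TPM for WT, 6.22 and 4.93 for HET and 8.60 and 8.48 for KO. WT 2 was thus lowest for Pecam1 and highest for Emcn. The ranges of the other 5 ran from 1.30-fold for Vwf, the clotting factor carrier of endothelium, to 2.79-fold for Tek, an angiopoietin receptor.

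Fat, blood and nerve markers also varied between the tissue libraries, with both fat markers highest in HET 1. Adipoq, the fat cell hormone adiponectin, was 5.02 and 6.73 TPM for WT, 11.8 and 0.0880 for HET and 2.65 and 4.90 for KO, a 134-fold range set by the low value of HET 2. Plin1, the coat protein of fat droplets, was 2.08 and 2.5 TPM for WT, 3.02 and 0.529 for HET and 0.971 and 1.46 for KO, lowest in the same library. Hbb-bs, a beta globin of red cells, was 176 and 208 TPM for WT, 114 and 267 for HET and 141 and 399 for KO. Hba-a1, an alpha globin, was 32.3 and 32.2 TPM for WT, 16.5 and 79.7 for HET and 25.9 and 129 for KO, so that both globins were highest in KO 2 and lowest in HET 1. Both globin genes have near-identical copies, and reads could be split between them. Of the glial genes, S100b, a calcium-binding protein of Schwann cells, was 0.314 to 1.89 TPM, and Sox10, their transcription factor, 0.144 to 0.670 TPM.

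**Figure D1:**
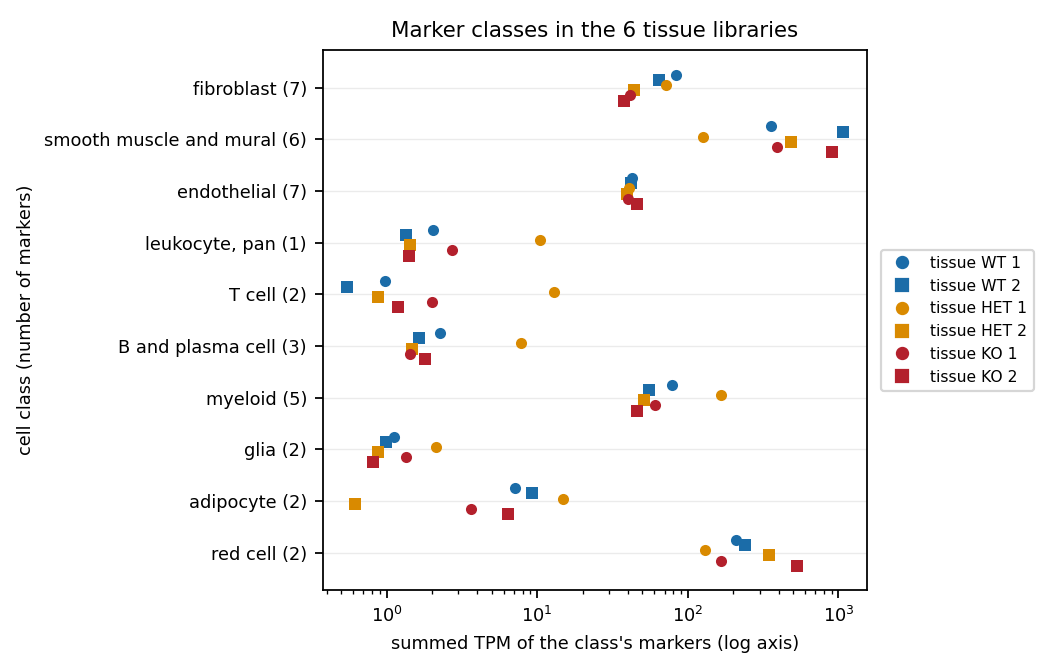
Summed TPM of the markers of each cell class (rows, with the number of markers; log axis) in the 6 tissue libraries, 1 point per library. Smooth muscle spans 127 to 1067 TPM while endothelium stays between 39.2 and 45.8, and HET 1 (filled orange circle) lies to the right for leukocyte, T cell, B cell and myeloid markers and to the left for smooth muscle.

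No member was called between the genotype labels in tissue. By the quasi-likelihood test of edgeR, adjusted by the Benjamini-Hochberg method, 0 of 36 tested members were called for HET against WT, KO against WT or KO against HET, and the background was 0% of 16739 genes in each. Cd79a was too low to be tested. At an unadjusted p under 0.05 there were 4, 2 and 0 members and 455, 322 and 97 genes, and DESeq2 called 0 members as well (10, 25 and 10 genes). Dpt had the lowest unadjusted p among members for KO against WT, with a log2 difference of -1.82 (SE 0.502, edgeR adjusted p = 1).

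Leaving out WT 2 and HET 1, the libraries with seminal vesicle RNA, left 1 library each for WT and HET, whose spread was then assumed to be that between the KO libraries. Adipoq was called in that fit, at a log2 difference of -5.75 for HET against WT (edgeR adjusted p = 0.00921) and 5.38 for KO against HET (edgeR adjusted p = 0.00848). The same fits called 27 and 60 genes in all, and both Adipoq calls rest on the single library HET 2. Over all 6 libraries the Adipoq differences were -0.27 and -0.31. The biological coefficient of variation between tissue libraries was 0.5012, with 3 residual degrees of freedom.

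Most of these markers all but vanished in organoids. Of the 37 members, 20 had a mean organoid level under 1% of their mean tissue level, 10 lay from 1% to under 10%, 4 from 10% to under 100%, and 3 at or above 100%. In 29 members all 18 organoid libraries lay below all 6 tissue libraries, where 15.1% of all genes with reads showed that pattern. For 2 members, Smtn and Cd68, the order was the opposite, which 7.54% of all genes showed. The remaining 6, which overlapped, were Fbln1, Rgs5, Cd8a, Ms4a1, Adipoq and Plin1.

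**Figure D2:**
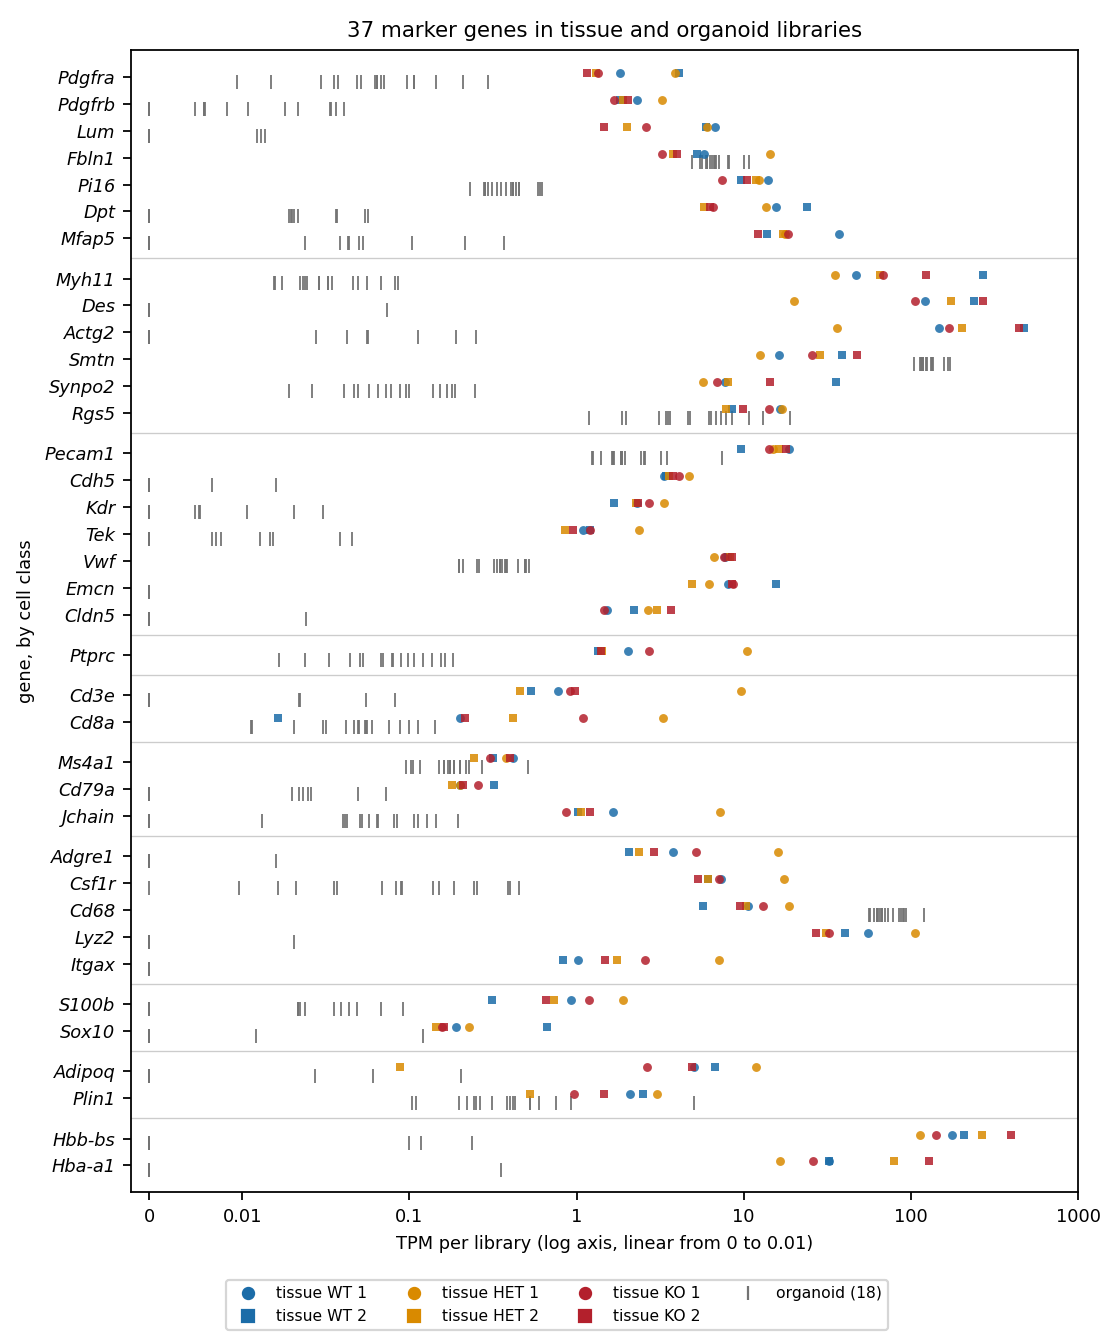
TPM of each marker (rows, grouped by cell class) in 6 tissue libraries (coloured points) and 18 organoid libraries (grey ticks), on an axis that is linear up to 0.01 and logarithmic above. Most grey ticks lie at or near 0, while those of Smtn and Cd68 lie to the right of all tissue points and those of Fbln1 and Rgs5 among them.

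In the edgeR fit to all 24 libraries, 34 members were higher and 2 were lower in tissue, where 43.4% and 34.8% of 17897 genes were called in those directions (78.1% in either). The median log2 difference over the members was 7.06, against 0.16 over all genes. All 37 members passed the low-count filter, many of them through the tissue libraries alone, so these counts describe the list and carry no further weight. Tissue and culture differ in everything from cell dissociation to medium, and these cannot be told apart.

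The contractile genes Des, Actg2, Myh11 and Synpo2 were nearly lost from organoids, while Smtn and Rgs5 of the same class, taken up below, were not. Des had 75601 reads in tissue and 9 in organoids, all 9 of them in 1 library, HET without DHT replicate 3. Actg2 had 48785 reads in tissue and 19 in organoids, and per read sequenced it was 8506 times as frequent in tissue (95% interval 5446 to 14128, counting error only). Myh11 had 104190 and 131 reads, with organoid levels from 0.0155 through a median of 0.0306 to 0.0853 TPM. Synpo2, an actin-binding protein of the muscle Z line, kept 0.769% of its tissue level.

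Among endothelial genes, Emcn, Cdh5, Cldn5, Kdr and Tek were nearly absent from organoids. Emcn had 1831 reads in tissue and 0 in all 18 organoid libraries, which against a floor of 3 reads over the group makes it at least 2022-fold higher in tissue. Cdh5, the endothelial cadherin, had 2449 reads in tissue and 3 in organoids, a ratio of 2704 (95% interval 924 to 13122). Cldn5, the endothelial claudin, had 529 reads against 1, a ratio of 1752 with a counting interval of 313 to 69344. Kdr and Tek, the receptors for VEGF and for angiopoietins, had 12 and 21 organoid reads. Pecam1 and Vwf kept 15.1% and 4.55% of their tissue level and are taken up below. Counted on coding transcripts alone, they kept 3.55% and 6.82%.

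Many immune markers were as sparse. Exceptions included Cd68, Ms4a1, Cd8a, Cd79a and Jchain. Cd8a had 88 organoid reads against 343 in tissue, with organoid levels of 0.0113 to 0.143 TPM. Cd79a had 11 organoid reads against 49 in tissue, and Jchain 69 against 456. Itgax, the integrin CD11c of dendritic cells and macrophages, had 1396 reads in tissue and 0 in organoids, at least 1541-fold higher in tissue against the same floor. Lyz2 had 8927 reads in tissue and 1 in organoids. Adgre1 had 2286 and 2 reads, and Cd3e 309 and 6. Csf1r, the receptor for macrophage colony-stimulating factor, kept 1.80% of its tissue level with 113 organoid reads, of which 67.5% lay on a transcript that shares 18% of its 31-base words with the overlapping gene Hmgxb3.

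Among fibroblast genes, Fbln1 had 10308 organoid reads and Pi16 had 700, and the other 5 ended lower. Lum, the matrix proteoglycan lumican, had 3 organoid reads, Dpt 15 and Mfap5 17. Pdgfrb, the PDGF receptor of fibroblasts and mural cells, had 40, and Pdgfra, its partner, 204. Hbb-bs and Hba-a1 had 5 and 4 organoid reads against 18365 and 5378 in tissue. Adipoq had 5, S100b 19 and Sox10 4. The other adipocyte member, Plin1, had 781 organoid reads and kept 36.9% of its tissue level.

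Cd68, a lysosomal membrane glycoprotein used as a macrophage marker, was the exception among myeloid genes. Its tissue level was 10.6 and 5.67 TPM for WT, 18.7 and 10.3 for HET and 13.1 and 9.46 for KO. In organoids it ran from 55.8 through a median of 68.8 to 120 TPM, above every tissue library. Tissue was lower by a log2 difference of -3.05 (SE 0.156, edgeR adjusted p = 1.89e-12). The other 4 myeloid members had at most 113 organoid reads each, against 44612 for Cd68. The gene lies on chromosome 11 from 69664213 to 69666153 (GRCm38, minus strand), and its main coding transcript took 99.4% of its organoid reads and shares no 31-base word with another gene.

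Smtn, smoothelin, a cytoskeletal protein of contractile smooth muscle, was likewise higher in culture. It read 16.2 and 38.7 TPM for WT tissue, 12.5 and 28.5 for HET and 25.6 and 47.7 for KO. In organoids it ran from 105 through 121 to 171 TPM. The log2 difference of tissue from organoid was -2.55 (SE 0.229, edgeR adjusted p = 6.47e-09). The other 4 contractile markers, Myh11, Des, Actg2 and Synpo2, were under 1% of tissue in the same libraries. A processed transcript on the opposite strand, Gm11946, shares 714 exonic bases with Smtn, and reads of the 2 genes cannot be told apart without strand.

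Smoothelin is known in a short form and a long form, and 1 transcript of each kind is shown because the mix of forms varied over the libraries. Smtn-201, of 9 exons, starts inside an intron of Smtn-202, which has 21. Each sequence below spans a joint between exons and ends in the same exon, at chr11:3526441-3527467 for Smtn-201 and chr11:3526441-3529479 for Smtn-202, introns included (GRCm38, minus strand). Capitals mark the coding bases before the joint, and those of Smtn-201 occur in no other annotated Smtn transcript.
Smtn-201: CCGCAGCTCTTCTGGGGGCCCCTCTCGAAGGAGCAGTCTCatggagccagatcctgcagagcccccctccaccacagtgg
Smtn-202: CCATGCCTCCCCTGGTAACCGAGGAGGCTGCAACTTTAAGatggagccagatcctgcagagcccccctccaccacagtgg
Smtn-202 took 75.0% of organoid Smtn reads. In pooled tissue the largest share, 42.3%, fell to another long form, Smtn-203, which WT 2 and KO 2 carried at 20.6 and 18.5 TPM against 5.87 and 6.18 TPM of Smtn-202. In the other 4 tissue libraries, as in all 18 organoid libraries, Smtn-202 was above Smtn-203. Their levels were close in HET without DHT replicate 1 (41.7 and 39.6 TPM) and in KO without DHT replicate 1 (46.9 and 45.7 TPM). In WT with DHT, Smtn-203 read 0 TPM. Every base of Smtn-202 and of Smtn-203 lies in another annotated Smtn transcript too. How well reads separate the 2 forms was not tested. The short Smtn-201 read 0.382 and 3.30 TPM for WT tissue, 0 and 2.12 for HET and 0.442 and 11.5 for KO. It stayed between 0.351 and 1.54 TPM in all 18 organoid libraries. KO 2 and WT 2, which were highest for Actg2, were also highest for the short form.

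For Fbln1, the matrix glycoprotein fibulin-1, the call depended on 1 tissue library. Tissue held 5.77 and 5.25 TPM for WT, 14.3 and 3.78 for HET and 3.26 and 3.97 for KO. Organoids ran from 4.92 through 6.54 to 10.8 TPM. The log2 difference was -0.37 (SE 0.169, edgeR adjusted p = 0.0549). Without tissue HET 1, the highest library, it was -0.73 and called (edgeR adjusted p = 5.28e-05), and it was also called without tissue KO 2 (-0.45) and without HET without DHT replicate 1 (-0.39). Without tissue HET 2 it was -0.17. All 10308 organoid reads lay on transcripts annotated as coding, and its top transcript in either material shares no 31-base word with another gene. The other 6 fibroblast members kept at most 3.71% of their tissue level.

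Rgs5 overlapped its tissue range in culture. Organoids ran from 1.19 through 5.47 to 19.0 TPM, where tissue held 7.81 to 17.0, so the organoid median lay below all 6 tissue libraries. Tissue was higher by a log2 difference of 1.10 (SE 0.217, edgeR adjusted p = 0.00014). The top coding transcript took 98.2% of organoid reads and 99.7% of tissue reads, so the same form was read in both.

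For several other members, the reads that remained in organoids fell on a different transcript than in tissue. Of 2424 organoid Pecam1 reads, 74.3% were assigned to Pecam1-208, a single-exon transcript of 2142 bases with a retained intron (chromosome 11 from 106661185 to 106663326, GRCm38, minus strand). Counted on coding transcripts alone, Pecam1 in organoids fell to 3.55% of tissue, against 15.1% over all transcripts. Pecam1-208 had 51 to 138 reads in each organoid library, and 104 in the library with the fewest reads, WT with DHT replicate 1. That library also held the highest organoid Pecam1, at 7.46 TPM against at most 3.46 in the other 17.

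Pecam1-208 shares 9.04% of its 31-base words with transcripts of 2317 other genes. Ms4a1-202, a retained-intron transcript that took 94.3% of organoid Ms4a1 reads, shares 5.51% with 2228 genes. Vwf-207, also with a retained intron, took 40.2% of organoid Vwf reads and shares 9.99% with 343 genes. The longest shared stretch of each, with its flanks, is printed because reads from it carry no mark of their gene. All 3 lie in bases that only the retained-intron transcript holds, and capitals mark bases covered by words found in at least 100 other genes.
Pecam1-208: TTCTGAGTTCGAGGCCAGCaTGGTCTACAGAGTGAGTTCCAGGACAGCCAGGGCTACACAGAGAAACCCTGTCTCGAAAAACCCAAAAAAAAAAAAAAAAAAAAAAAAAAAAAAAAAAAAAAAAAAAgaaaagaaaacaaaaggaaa
Ms4a1-202: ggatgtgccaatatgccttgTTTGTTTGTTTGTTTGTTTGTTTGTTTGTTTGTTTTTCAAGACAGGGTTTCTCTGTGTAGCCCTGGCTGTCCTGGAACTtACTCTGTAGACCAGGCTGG
Vwf-207: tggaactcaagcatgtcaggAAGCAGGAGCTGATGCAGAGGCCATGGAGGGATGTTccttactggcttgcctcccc
On GRCm38 they lie at chr11:106662908-106663054 (minus strand), chr19:11253602-11253720 (minus strand) and chr6:125634491-125634566 (plus strand). The longest stretch covered 107, 79 and 36 bases and occurs in words of 1654, 1097 and 148 other genes. Whether the reads came from those genes, from unspliced RNA or from the marker genes themselves was not tested.

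Other members split the same way. Ptprc had 149 organoid reads, of which 98% lay on transcripts not annotated as coding, against 12.4% in tissue. On coding transcripts its organoid level was 0.149% of tissue, against 2.70% over all transcripts. Pi16, a peptidase inhibitor of adventitial fibroblasts, had 99.1% of its organoid reads on Pi16-206, which is annotated as coding and shares 14.7% of its words with 2409 other genes. In tissue the top Pi16 transcript was another one and took 35.8%. Jchain had 71.4% of 69 organoid reads on a retained-intron transcript.

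Ms4a1 and Plin1 differed from these in that the same transcript led in both materials. For Ms4a1, Ms4a1-202 took 86.5% of only 142 tissue reads, and no organoid read lay on a coding transcript. Its organoid levels ran from 0.0951 through 0.175 to 0.513 TPM, and the log2 difference of 0.67 (SE 0.265, edgeR adjusted p = 0.0281) was no longer called when any of 4 tissue libraries was left out (HET 1, KO 2, WT 1 or WT 2). For Plin1, Plin1-206 took 99.9% of organoid and 96.2% of tissue reads and shares 2.98% of its words with 604 genes.

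**Figure D3:**
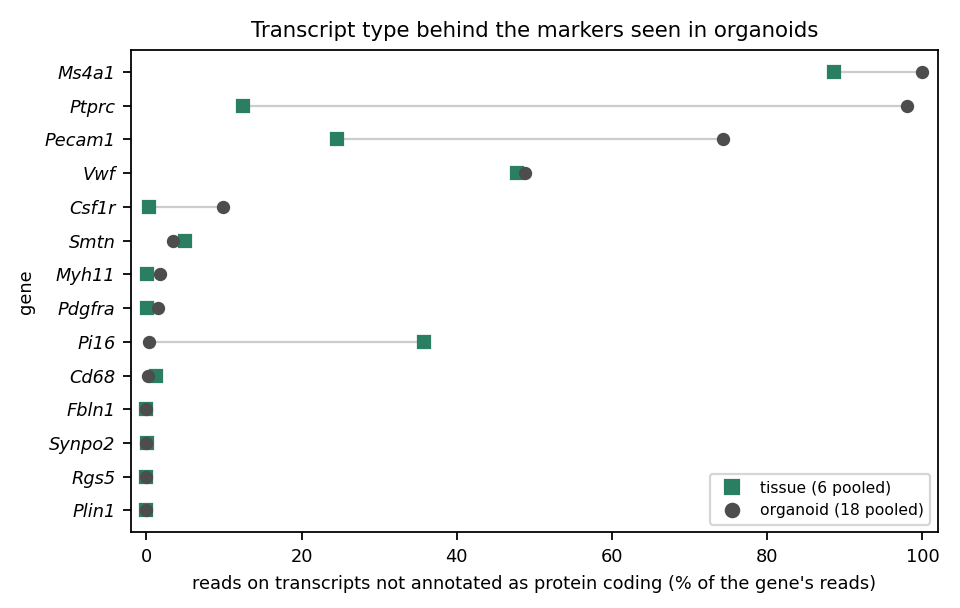
Share of each gene's reads on transcripts not annotated as protein coding (x axis, percent), in 6 pooled tissue libraries (squares) and 18 pooled organoid libraries (circles), for the 14 markers with over 100 organoid reads. Ptprc moves from 12.4% to 98% and Pecam1 from 24.6% to 74.3%, Pi16 moves the other way, and Cd68, Fbln1 and Rgs5 lie near 0% in both.

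Within organoids, 14 of the 37 members had enough reads to be tested: Cd68, Csf1r, Fbln1, Ms4a1, Myh11, Pdgfra, Pecam1, Pi16, Plin1, Ptprc, Rgs5, Smtn, Synpo2 and Vwf. Only Rgs5 was called in any comparison. It was 9.57, 2.89 and 4.32 CPM, the read count scaled to library size, in WT with DHT and 18.7, 9.63 and 13.9 without. HET held 9.06, 5.49 and 10.6 CPM with DHT and 27.7, 19.7 and 17.8 without. KO held 15.3, 8.55 and 12 CPM with DHT and 57.6, 29.1 and 31.3 without. In each label the 3 libraries without DHT lay above the 3 with it.

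Without DHT, Rgs5 was higher in KO-labelled than in WT organoids by a log2 difference of 1.48 (SE 0.393, edgeR adjusted p = 0.0418), and that made 1 of 14 members where the background was 4.81%. All 3 KO libraries lay above all 3 WT libraries. The call was lost, at an adjusted p of 0.0573 to 0.189 in edgeR, when KO replicate 1 or 2 or any WT replicate was left out, and kept without KO replicate 3. Without KO replicate 1 the log2 difference was 1.10.

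DHT withdrawal gave a log2 difference for Rgs5 of 1.45 among WT organoids, with an SE of 0.419 and an edgeR adjusted p of 0.144. Among HET organoids it was 1.37, with an SE of 0.397 and an edgeR adjusted p of 0.198. KO organoids gave 1.71, with an SE of 0.397 and an edgeR adjusted p of 0.0812. None of the 14 members was called in these 3 comparisons, where the background was 1.3%, 0.707% and 0.558%. DESeq2 called Rgs5 in all 3, among 397, 296 and 281 genes. At an unadjusted p under 0.05, edgeR gave 1, 2 and 1 members and 1244, 1293 and 1085 genes. Averaged over the labels, a comparison added after the values were seen, the log2 difference was 1.51 (SE 0.233, edgeR adjusted p = 8.23e-04), and Rgs5 was the only member called, against a background of 4.95%. All 9 libraries without DHT lay above the 3 with DHT of their label.

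The 2 libraries with the largest mitochondrial share, KO and HET without DHT replicate 1, also held the highest Rgs5 of their groups. These and WT with DHT replicate 1 had the fewest reads of all organoids, and with the 3 left out the averaged difference was 1.48 (edgeR adjusted p = 2.52e-04) and that of KO from WT without DHT 1.11 (edgeR adjusted p = 0.0486). The differences between the withdrawal responses were -0.08 for HET against WT (SE 0.568), 0.26 for KO against WT (SE 0.567) and 0.34 for KO against HET (SE 0.551), each at an edgeR adjusted p of 1. No member and none of 15415 genes (0%) was called in them, with 433, 418 and 151 genes at an unadjusted p under 0.05 and 6, 6 and 1 genes called by DESeq2.

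**Figure D4:**
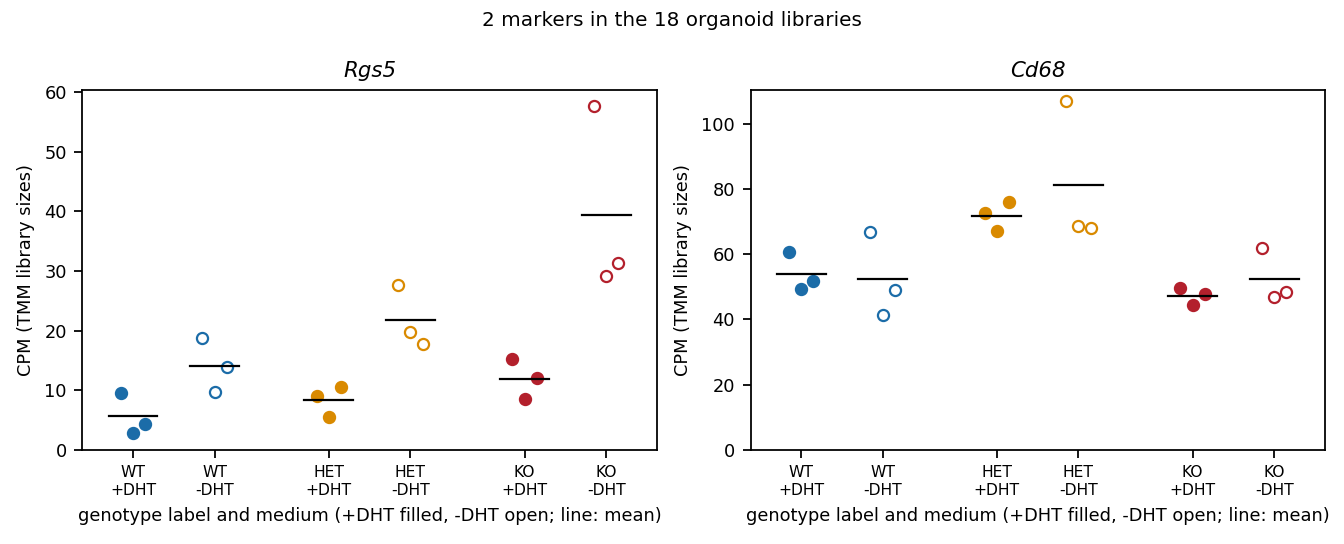
CPM of Rgs5 and Cd68 in the 18 organoid libraries (y axes start at 0), by genotype label and medium, with filled points for DHT, open points for no DHT and a line at the mean of 3. Rgs5 is higher without DHT in each label and reaches 57.6 CPM in KO, while Cd68 is higher in HET (67.1 to 107 CPM) than in KO (44.3 to 62 CPM).

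Cd68 was near the threshold between labels. With DHT it was 60.7, 49.3 and 51.8 CPM for WT, 72.5, 67.1 and 75.9 for HET and 49.7, 44.3 and 47.9 for KO. Without DHT it was 66.8, 41.3 and 48.9 CPM for WT, 107, 68.5 and 68.0 for HET and 62, 47.0 and 48.3 for KO. HET lay above WT and above KO in both media, with no overlap. With DHT the log2 difference of HET from WT was 0.42, with an SE of 0.188 and an edgeR adjusted p of 0.24. In medium lacking DHT it was 0.63, with an SE of 0.187 and an edgeR adjusted p of 0.0514. KO differed from HET by -0.60 with DHT (SE 0.187, edgeR adjusted p = 0.104). In medium lacking DHT that value was -0.63 (SE 0.188, edgeR adjusted p = 0.0959). Leaving out HET without DHT replicate 1, the mitochondria-rich library that held 107 CPM, moved the DHT-free values to 0.38 and -0.38.

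None of these Cd68 differences passed the edgeR threshold, and 0 of 14 members were called for HET against WT with DHT (background 7.48%) or without (7.8%), for KO against HET with DHT (3.53%) or without (2.91%), or for KO against WT with DHT (4.12%). At an unadjusted p under 0.05 there were 1, 1, 2, 4 and 1 members and 2902, 2908, 2172, 1840 and 2033 genes. DESeq2 called Cd68 for HET against WT without DHT (adjusted p = 0.0191) and for KO against HET in both media (adjusted p = 0.0487 and 0.0394), among 1684, 992 and 798 genes. In HET and KO without DHT, deviations of same-numbered libraries correlated at 0.6139, 0.231 and 0.6905. Differently numbered organoid libraries reached 0.4806, and replicate 1 of both groups was mitochondria-rich, so pairing is not shown. A block on the replicate number fitted 1 effect per number over all 18 organoid libraries. In that fit Cd68 was called between HET and KO without DHT at a log2 difference of -0.62 (edgeR adjusted p = 0.0129, 530 genes called).

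Smtn and Fbln1, the other 2 members with a full tissue level in culture, were steady between groups. Mean Smtn lay between 227 and 272 CPM over the 6 groups and mean Fbln1 between 11.8 and 14.8 CPM. Plin1 was 10.5 CPM in KO without DHT replicate 1 and at most 2.03 in the other 17 libraries, and that single library held 255 of its 781 organoid reads. Leaving it out moved the log2 difference of tissue from organoid for Plin1 from 1.21 (edgeR adjusted p = 0.0408) to 1.68. The Plin1 call was lost without any 1 of 10 other libraries: tissue HET 1 (log2 0.74), KO 2, WT 1 or WT 2, organoid WT with DHT replicate 2 or 3, WT without DHT replicate 3, HET with DHT replicate 1, HET without DHT replicate 2 or KO with DHT replicate 3.

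A further 71 markers of the same cell types were looked at in the same way. Of 67 tested, 63 were higher and 2 lower in tissue by the edgeR test. Over all 17897 genes, 43.4% and 34.8% were called in those directions. As with the members, these counts describe the list and carry no further weight. Among fibroblast genes all 10 were higher in tissue, Col3a1, a fibrillar collagen chain, at 41.9 TPM on average in tissue against 0.0582 in organoids. Dcn, the matrix proteoglycan decorin, kept 15.0% of its tissue level, with an organoid median of 19.2 TPM. Of 13 smooth muscle genes 11 were higher in tissue, and the tropomyosin gene Tpm2 was not called, at 413 TPM in tissue and 225 in organoids. Among myeloid genes all 10 were higher in tissue, and C1qa, a complement subunit of macrophages, fell from 55.3 TPM in tissue to 0.00147 in organoids. The immunoglobulin light chain gene Igkc stood at 29.1 and 0.00435 TPM.

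For smooth muscle these further markers ranked the tissue libraries as the members did, and for T cells and myeloid cells HET 1 was again highest. Their smooth muscle sum ran from 410 TPM in HET 1 to 4091 in WT 2. Their T cell sum was 32.4 TPM in HET 1 and at most 8.17 in the other 5, and their myeloid sum was 447 TPM in HET 1 and at most 207 elsewhere. The further endothelial genes were less even than the members, at 39.4 to 86.3 TPM, and ranked the libraries differently. HET 2, lowest for the endothelial members at 39.2 TPM, stood at 72.9 TPM. The further glial genes were highest in WT 2 (4.36 TPM), the glial members in HET 1 (2.12 TPM). In the 3 tissue comparisons 0 of 67 were called by edgeR, with 5, 5 and 0 at an unadjusted p under 0.05.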

How the data were processed

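Per the file headers, the deposited files give estimated counts and TPM for 116945 transcripts each. Salmon 0.13.1 made both, per the submitters' processing notes, which name build hg38 although the identifiers are mouse Ensembl transcripts. The index annotation, trimming, strandedness and settings are not given in the sources used here.

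Estimated counts and TPM were summed per gene with GENCODE mouse release 21 (GRCm38). The 1000 transcripts without a gene there held 0.241% to 0.348% of reads. Counts were rounded and tested with edgeR 4.0.16 in R 4.3.3 (quasi-likelihood, TMM library sizes, filterByExpr by group, Benjamini-Hochberg over all genes, threshold 0.05) in 3 fits: all 24 libraries (17897 genes), the 6 tissue libraries (16739) and the 18 organoid libraries (15415). There were 16 comparisons planned and 1 added. CPM uses TMM library sizes. Intervals of read ratios are exact at 95% and, like the floor of 3 reads, cover counting error only. Shared words are 31-base runs of GENCODE transcripts found, on either strand, in another gene's transcripts. The test was tested on simulated data.

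The members and lists were chosen with earlier results of these data known. Named in full were the 2 members per class highest in tissue, those called within tissue or organoids, and the 5 with the highest organoid to tissue ratio. Other genes were named after their values were seen. Alternatives were DESeq2 1.42.0, its size factors in edgeR, no filter, a filter of over 1 CPM, the replicate number as a block, each library left out, DHT-only organoids and near-identical copies summed. Added after seeing the data were coding transcripts only, tissue WT 2 and HET 1 left out, and the 3 organoid libraries with the fewest reads left out. The labels tie a replicate number to no animal or day. Correlations of deviations from group means exceeded 0.1 in 17 of 45 same-numbered organoid pairs and 4 of 6 tissue pairs. Differently numbered organoid pairs exceeded 0.1 in 23 of 90. Of the organoid groups compared, only HET and KO without DHT had all 3 same-numbered pairs above 0.1, which does not show pairing. The block fitted 1 effect per replicate number, shared by all libraries of a fit.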

Additional observations from a re-analysis of the deposited data

How the results depend on the processing

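Of the members tested between tissue and organoid, 32 to 37 were called over all alternatives, 34 to 37 with each library left out, and no called direction reversed. Over all alternatives 12286 to 14684 genes were called in that comparison. The log2 difference lost its call for Ms4a1 in 4 and Plin1 in 10 of 24 fits that left out 1 library, and Fbln1 gained one in 3. Within organoids and tissue the count of called members rested on Rgs5, Cd68 and Adipoq. It rose from 0 to 1 for HET against WT and KO against HET tissue without WT 2 and HET 1. The Adipoq log2 difference of HET from WT tissue, -0.27 over all libraries, ran from -5.95 to 0.72 with 1 library left out. That of KO from HET tissue, -0.31 over all libraries, ran from -1.30 to 5.38, and was also 5.38 without WT 2 and HET 1. DESeq2 raised the count of called members from 0 to 1 for withdrawal in WT, HET and KO, for KO against HET with and without DHT and for HET against WT without DHT, where the filter of over 1 CPM also gave 1. In that order DESeq2 called 397, 296, 281, 992, 798 and 1684 genes, and the filter left 1185 called. Leaving out the 3 libraries with the fewest reads gave 1 for withdrawal in WT (332 genes called) and for the 3 label comparisons with DHT. Those called 1328 genes for HET against WT, 936 for KO against WT and 1048 for KO against HET. With each library left out the count ran from 0 to 1 for withdrawal in WT, KO against WT with DHT, HET against WT without DHT and KO against WT without DHT. The single libraries were WT with DHT replicate 1 for the first 2 of these (Rgs5 log2 1.96 and 1.73), and HET without DHT replicate 3 or WT without DHT replicate 1 for the third (Cd68 log2 0.74 and 0.85). In that order these fits called 196, 562, 1474 and 825 genes. The cause was not tested. The class shares of summed member TPM moved by over 1 SD in 18 of 60 cases on the CPM scale and in 23 of 60 without the highest member of each class.

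Apart from HET and KO without DHT, no 2 organoid groups compared had all same-numbered pairs correlating above 0.1. In no group was the number shown to pair libraries, and the block applied it to all libraries of a fit. With the replicate block, 1 member was called where 0 had been for withdrawal in WT, HET and KO (Rgs5 log2 1.46, 1.39 and 1.69), for HET against WT with and without DHT, for KO against WT with DHT and for KO against HET with and without DHT. In that order the genes called rose from 200, 109, 86, 1153, 1203, 635, 544 and 448 to 239, 167, 117, 1332, 1367, 707, 653 and 530 of 15415. In tissue the block turned the Adipoq log2 difference of KO from HET to 0.26, with no member called.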

Other observations

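Some markers outside the 37, named after their values were seen, were also retained in culture, and others set beside them were not. Flt1, a VEGF receptor of endothelium, was at a median of 7.95 TPM in organoids and at 2.15 to 3.94 TPM in tissue, a log2 difference of tissue from organoid of -1.38 (SE 0.0902, edgeR adjusted p = 6.63e-11). Its fellow VEGF receptor Kdr had 12 reads in all 18 organoid libraries. Notch3, a receptor of mural cells, was at a mean of 7.50 TPM in organoids and 5.48 in tissue. Msln, mesothelin, was at a median of 257 TPM in organoids and at most 33.2 in tissue, while the mesothelial gene Upk3b was at most 0.0199 TPM in organoids. Lck, a T cell kinase, kept 64.6% of its tissue level and the T cell receptor chain Cd3g 0.297%.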
